A study of Rattus norvegicus with 8 samples.

Results

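The genes described here are 3 tensins (Tns1, Tns2 and Tns3) and 7 other genes of the focal adhesion plaque, Tln1 (talin 1), Vcl (vinculin), Zyx (zyxin), Pxn (paxillin), Ptk2 (focal adhesion kinase, FAK), Parva (α-parvin) and Ilk (integrin-linked kinase). They were chosen by name as core components of the plaque, with earlier results of these data known. All 10 had a row in the deposited counts, and all 10 passed the filter on low counts together with 13253 genes in all.

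Focal adhesions are the sites at which a cell holds on to its matrix. Integrins span the membrane there, talin and the kindlins bind their cytoplasmic tails, and a dense plaque of adaptor proteins couples them to actin. Vinculin binds talin that has been stretched by force and strengthens the link. Paxillin is a scaffold on which FAK and its partners signal, and zyxin carries LIM domains that respond to tension on actin. Tensins bind both integrin tails and actin, and are known as components of the long central adhesions of fibroblasts. Nucleus pulposus (NP) cells lie in the hydrated centre of the intervertebral disc, a compartment of few cells under high load, and once plated they attach to plastic through such adhesions.

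RNA-seq was performed on primary NP cells isolated from Sprague Dawley rats between 3 and 6 months of age, cultured and transduced with lentiviral particles. Sirt6-KD cells (n = 4, libraries S5 to S8) received a mixture of 3 clones of ShRNA against Sirt6, a NAD-dependent deacetylase of histone H3. Sirt6-Ctrl cells (n = 4, libraries S1 to S4) received a control ShRNA. Viral transduction and selection with puromycin were therefore common to both groups, and the transcript was lowered in cultured cells and not removed from a tissue. The time between transduction and lysis for RNA was not given in the sources used here. The series record speaks of cells from 4 rats and the study's methods of independent experiments, but no label ties a library to a rat.

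Sirt6 itself (ENSRNOG00000006393) checked the labels. It had 1755 to 1964 counts in Sirt6-Ctrl and 695 to 753 in Sirt6-KD, and fell from 54.2 ± 3.25 to 21.7 ± 1.19 CPM (SD, n = 4), a log2 fold change of -1.32 (SE 0.13, adjusted p = 0.000688). CPM is the count of a gene relative to the library's counts on all genes, with library sizes scaled by TMM, a trimmed mean that centres most genes on no change. Adjusted p-values are from edgeR's quasi-likelihood test, two-sided, and were adjusted by Benjamini-Hochberg across the 13253 genes. Both an adjusted p below 0.05 and a change of more than 1.5-fold were required for a call.

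Total counts were 31994838 to 40124813 in Sirt6-Ctrl and 32382957 to 36600792 in Sirt6-KD. The share of counts on ERCC spike-ins, synthetic RNAs added to the samples, was 6.27%, 9.80%, 3.08% and 2.97% in S1 to S4, and 2.15% to 2.47% in Sirt6-KD. Its mean was 5.53% against 2.29% (exact permutation, two-sided, p = 0.0286, which is the minimum for 4 against 4). S1 and S2 stand apart in this share, so results on the 10 genes and on the gene lists are also given without them where that changes a call or a count. Scaling the libraries by their spike-in counts moved the median of all genes from 0.01 to 0.94 (log2). The share differs between the groups. Fewer cells, less RNA per cell and more spike-in added in Sirt6-Ctrl cannot be told apart in these bulk libraries. Changes below are therefore relative to the other genes of the same library. Of 12 markers of NP cells, 7 were tested. Krt8 was at 79 to 372 counts, Acan at 158 to 2296 and Sox9 at 183 to 637. Car3 was at 24 to 756 counts, Cd24 at 460 to 1771, Car12 at 366 to 3225 and Foxf1 at 1148 to 2059. Col1a1, a main product of annulus fibrosus cells and fibroblasts, was at 290419 to 1040124 counts, and Col1a2 of the same marker list at 31 to 107. The summed level of the NP markers was 159 to 188 CPM in Sirt6-Ctrl and 174 to 193 CPM in Sirt6-KD. This sum joins opposite moves, with 2 positive and 5 negative fold changes. Car12 went from a mean of 29.6 to 86.3 CPM (log2 fold change 1.55, adjusted p = 0.0801), and Sox9 was at 0.52. Of the 7 NP markers, 2 were called lower (Car3 and Krt8) and 0 higher, against 9.88% and 8.25% of all genes. Without S1 and S2, 1 was called lower, as without S1, S5, S6 or S8 alone and by limma-voom, and 3 were by DESeq2 or without S4. None was called higher by DESeq2, 1 was by limma-voom or without S2 or S3, and 1 was higher at an unadjusted p below 0.05. The summed level of the 7 annulus fibrosus and fibroblast markers was 14806 to 28703 CPM and 8925 to 19277 CPM. Of these 7, 1 was called lower (Col3a1) and 0 higher, against 9.88% and 8.25% of all genes. The number called lower was 3 without S1 and S2 or without S3, 4 by DESeq2 or without S8, 2 without S2 or S7, and 1 by limma-voom, and 7 of 7 had a negative fold change. None was called higher by DESeq2 or limma-voom or was higher at an unadjusted p below 0.05. The 5 smooth muscle markers summed to 213 to 1409 CPM and 418 to 963 CPM, with 0 called by edgeR. DESeq2 and limma-voom each called 1 higher, and 1 was higher at an unadjusted p below 0.05. Without S4, 3 were called higher, and without S3, 1 was. S4 was highest because of 43241 counts of Acta2, against 688 to 2589 in the other Sirt6-Ctrl libraries. Acta2 was uneven in Sirt6-KD too, at 19691 counts in S8 against 3215 to 4410 in S5 to S7. The 3 macrophage markers summed to 12.5 to 31.1 CPM and 15.8 to 25.1 CPM with 0 called by edgeR, DESeq2 or limma-voom and 0 at an unadjusted p below 0.05 by edgeR. Of the 5 endothelial markers only Tek had a row with its name, at 0 to 21 counts, too few to be tested. Of 3 osteoblast markers tested, which summed to 16.4 to 25.3 CPM and 27.1 to 31.6 CPM, Runx2 was called higher and Alpl lower, and the call of Runx2 was lost without S1 and S2 and without S1, S5, S6 or S7 alone. The part of any of these in the results that follow was not tested.

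In Sirt6-KD, 4 of the 10 genes were called higher: Tns1, Tns3, Vcl and Zyx. Over all genes tested, 8.25% were called higher and 9.88% lower. None of the 10 was called lower by edgeR, DESeq2 or limma-voom, and none had a negative fold change at an unadjusted p below 0.05. The fitted fold change was positive in 10 of 10, against 50.7% of all genes, and the median was 0.55 against 0.01 over all genes (log2). The 4 libraries of each group did not overlap, with Sirt6-KD above, for 6 of the 10 genes (the 4 called, Tln1 and Pxn), against 15.2% of all genes. Summed over the 10 genes, Sirt6-Ctrl libraries held 1536 to 2421 CPM and Sirt6-KD libraries 3102 to 3312 CPM.

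**Figure D1:**
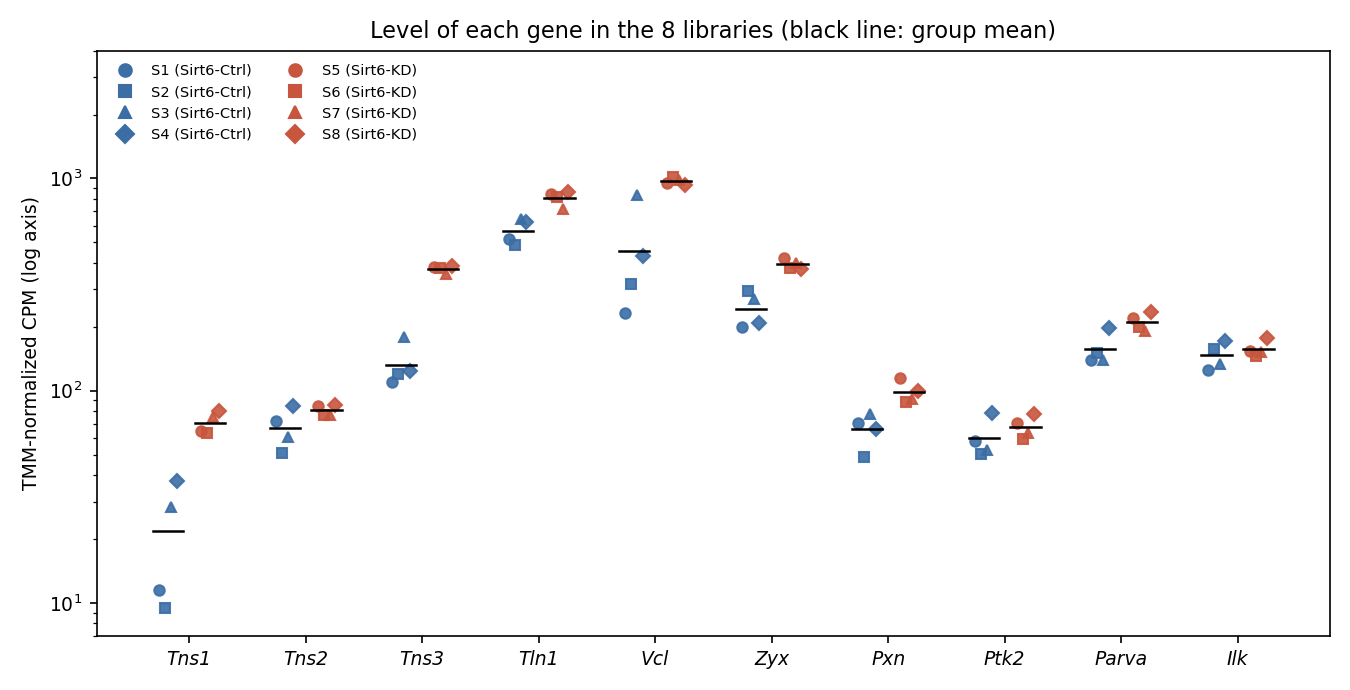
CPM (TMM-scaled, log axis) of each of the 10 genes in the 4 Sirt6-Ctrl (blue) and 4 Sirt6-KD (red) libraries. Points are libraries, with 1 shape for each library of a group, and black lines are group means. Tns3 in Sirt6-KD sits at 355 to 388 CPM, above all Sirt6-Ctrl libraries at 110 to 179 CPM, whereas the groups of Tns2, Ptk2, Parva and Ilk overlap.

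Of the 10 genes, 7 had an entry in RefSeq's promoter table for the GRCr8 assembly, which gives 250 bases before and 50 after a start. Ilk, Tln1, Tns2, Tns3 and Vcl had 1 window and Zyx and Pxn several, which makes 9 windows, and Tns1, Ptk2 and Parva were not matched. The 250 bases before the start are printed for the 3 called genes that have an entry, so that the letters upstream of the genes that moved can be read beside their values. They are chr14:87619387-87619636 on the minus strand for Tns3, chr15:3404801-3405050 on the minus strand for Vcl, and chr4:72203750-72203999 on the plus strand for Zyx (the first of its 2 windows). Capitals mark GGAATG, the core of the TEAD motif, and GGGCGG, the core of the Sp1 motif, each on either strand.
Tns3: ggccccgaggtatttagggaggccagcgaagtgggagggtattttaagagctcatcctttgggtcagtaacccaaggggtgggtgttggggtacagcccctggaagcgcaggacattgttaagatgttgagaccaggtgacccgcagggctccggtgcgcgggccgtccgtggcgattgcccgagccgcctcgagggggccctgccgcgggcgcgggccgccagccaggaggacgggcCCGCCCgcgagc
Vcl: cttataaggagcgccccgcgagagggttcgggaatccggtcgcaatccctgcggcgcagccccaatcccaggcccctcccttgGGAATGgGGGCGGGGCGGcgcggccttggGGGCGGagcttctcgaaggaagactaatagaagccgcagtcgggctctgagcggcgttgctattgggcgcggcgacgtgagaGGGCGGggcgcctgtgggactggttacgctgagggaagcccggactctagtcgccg
Zyx: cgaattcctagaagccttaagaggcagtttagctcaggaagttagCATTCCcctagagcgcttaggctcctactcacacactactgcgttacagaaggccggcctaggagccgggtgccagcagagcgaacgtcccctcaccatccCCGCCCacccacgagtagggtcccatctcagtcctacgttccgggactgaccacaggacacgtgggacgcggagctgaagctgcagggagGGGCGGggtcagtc

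In Vcl the GGAATG begins 167 bases before the start, and GGGCGG begins 160, 155, 138 and 56 bases before it, the first 2 of these sharing 1 base. In Zyx the TEAD letters begin 205 bases before the start on the reverse strand, and the Sp1 letters begin 104 and 14 bases before it. Tns3 holds the Sp1 letters once, 12 bases before the start on the reverse strand. The TEAD core was in 2 of the 9 windows, those 2, against 14.2% of the 33469 promoters of the table, and the Sp1 core in 5 of 9 against 33.1%. The windows with the Sp1 core were the printed ones, the second window of Zyx, and that of Ilk, which was not called. The CArG box, the motif of serum response factor, was in 0 of 9 windows against 1.64% of all promoters, and the AP-1 motif TGANTCA in 0 of 9 against 7.33%. These are matches of letters, and no match says only that the letters are not in the window.

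Of the tensins, Tns1 and Tns3 were higher in Sirt6-KD, and Tns2 was not called. Tns3 (ENSRNOG00000025695) encodes a tensin that binds integrin tails through its PTB domain. It was at 110, 119, 179 and 123 CPM in S1 to S4 and at 383, 379, 355 and 388 CPM in S5 to S8. The lowest Sirt6-KD library was 1.98 times the highest Sirt6-Ctrl library. The means were 132.8 ± 31.2 and 376.3 ± 14.8 CPM (SD, n = 4), a log2 fold change of 1.503 (SE 0.16, 95% CI 1.14 to 1.86, adjusted p = 0.00104). By p, Tns3 ranked 28 of the 13253 genes. Without S1 and S2 its log2 fold change was 1.32 (adjusted p = 0.00373).

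Tns1 (ENSRNOG00000014182), a long tensin that crosslinks and caps actin, had 391, 304, 917 and 1480 counts in S1 to S4 and 2125, 1989, 2734 and 2598 in S5 to S8. In CPM these were 11.4, 9.47, 28.3 and 37.5 against 64.8, 62.8, 74.7 and 80.2. S1 and S2 were the low libraries, the highest Sirt6-Ctrl library being 3.96 times the lowest, while the Sirt6-KD libraries lay within 1.28 times of each other. The means were 21.7 ± 13.5 and 70.7 ± 8.23 CPM (SD, n = 4), and the log2 fold change was 1.70 (SE 0.39, 95% CI 0.84 to 2.57, adjusted p = 0.0149). Without S1 and S2, whose spike-in share was highest, it was 1.11 (adjusted p = 0.00798), a fall in size with the call kept.

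Tns2 (ENSRNOG00000010588), a tensin that carries a C1 domain, was at 71.9, 50.9, 60.5 and 84.2 CPM in S1 to S4 and at 85.0, 77.2, 77.0 and 85.4 CPM in S5 to S8. Its groups overlap through S4, which lay above S6 and S7. The log2 fold change was 0.28 (SE 0.16, 95% CI -0.08 to 0.63, adjusted p = 0.241), an interval whose upper end is below the lower ends for Tns1 and Tns3.

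The tensins were also set against each other within each library, where the scaling cancels. The log2 ratio of Tns3 to Tns2 was 0.61, 1.23, 1.56 and 0.55 in S1 to S4 and 2.17, 2.30, 2.20 and 2.18 in S5 to S8, with no overlap, and its mean was higher by 1.23 in Sirt6-KD. That of Tns1 to Tns2 was higher by 1.63, also with no overlap. Each gave p = 0.0286 by an exact two-sided permutation test, the smallest possible, and 0.0571 after adjustment over the 8 ratios computed, which does not pass 0.05. At this minimum the adjusted value depends only on how many of the 8 ratios reach it, so it cannot decide on a single ratio. The ratio of Tns3 to Tns1 differed by -0.40 with overlapping groups (exact permutation p = 0.343, adjusted 0.392). It ranged from 1.72 in S4 to 3.65 in S2, and from 2.25 to 2.59 in Sirt6-KD.

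**Figure D2:**
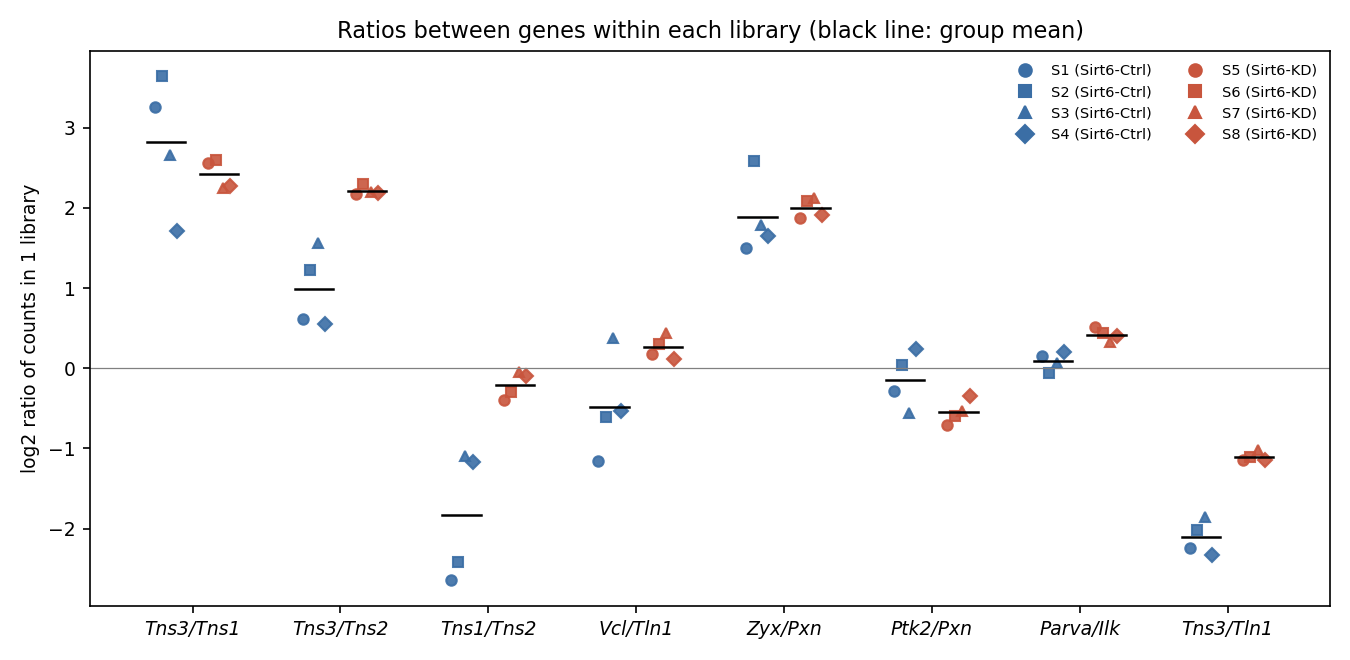
Log2 ratios of the raw counts of 2 genes within a library, with 2 added to each count, for the 8 pairs compared. Sirt6-Ctrl libraries are blue and Sirt6-KD libraries red. Points are libraries and black lines are group means. Tns3/Tns2, Tns1/Tns2, Tns3/Tln1 and Parva/Ilk do not overlap between groups, and the other 4 pairs do. Several pairs share a gene and so are not separate results, and the share over other pairs of genes was not computed.

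Of Tln1, Vcl and Zyx, which lie on the way from integrins to actin, Vcl and Zyx were called higher. Vcl (ENSRNOG00000010765) was at 233, 318, 835 and 430 CPM in S1 to S4 and at 954, 1014, 979 and 935 CPM in S5 to S8. S3 stood close to the Sirt6-KD libraries, the lowest of which was 1.12 times S3, and S1 was lowest. The means were 454.1 ± 266.8 and 970.5 ± 34.3 CPM (SD, n = 4), and the log2 fold change was 1.10 (SE 0.33, 95% CI 0.37 to 1.82, adjusted p = 0.0377). This call was lost on leaving out any library other than S3 (log2 fold change 0.87 to 1.10, adjusted p up to 0.0875), and without both S1 and S2 (0.62, adjusted p = 0.105). Without S3 the log2 fold change was 1.57.

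Tln1 (ENSRNOG00000016630), which links integrin tails to actin and activates integrins, was at 517, 484, 644 and 621 CPM in S1 to S4 and at 843, 819, 720 and 860 CPM in S5 to S8. The groups did not overlap, and the means were 566.5 ± 78.0 and 810.5 ± 62.5 CPM (SD, n = 4). The log2 fold change was 0.52 (SE 0.14, 95% CI 0.21 to 0.82, adjusted p = 0.0242), which is 1.43-fold and so below the fold threshold. Without S1 and S2 it was 0.36 (adjusted p = 0.0781). The log2 ratio of Vcl to Tln1 was higher by 0.74 in Sirt6-KD, with overlapping groups since S3 lay at 0.37 (exact permutation p = 0.114, adjusted 0.152). That of Tns3 to Tln1 was higher by 1.005 with no overlap (exact permutation p = 0.0286, adjusted 0.0571).

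Zyx (ENSRNOG00000017354) was at 199, 294, 269.8 and 207 CPM in S1 to S4 and at 422, 378, 399 and 374 CPM in S5 to S8. S2 and S3 were the higher Sirt6-Ctrl libraries, and the lowest Sirt6-KD library was 1.27 times S2. The means were 242.6 ± 46.5 and 393.3 ± 22.3 CPM (SD, n = 4), a log2 fold change of 0.70 (SE 0.15, 95% CI 0.37 to 1.03, adjusted p = 0.0114). Zyx kept its call without S1 and S2, at 0.73 (adjusted p = 0.0148).

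Of paxillin and FAK, the signalling core, neither was called. Pxn (ENSRNOG00000001149) was at 70.3, 48.9, 77.9 and 66.2 CPM in S1 to S4 and at 115, 88.7, 91.3 and 99.5 CPM in S5 to S8, without overlap. Its log2 fold change was 0.58 (SE 0.16, 95% CI 0.23 to 0.94, adjusted p = 0.0288), or 1.498-fold, just under the fold threshold. It was called with upper-quartile scaling, with limma-voom and without S3, and without S1 and S2 it was at 0.46 (adjusted p = 0.0714). Ptk2 (ENSRNOG00000007916) was at 58.0, 50.3, 52.7 and 78.3 CPM in S1 to S4 and at 70.3, 58.9, 63.0 and 78.0 CPM in S5 to S8. S4 was the highest of all 8 libraries, and the log2 fold change was 0.18 (SE 0.17, 95% CI -0.20 to 0.55, adjusted p = 0.492). The ratio of Ptk2 to Pxn differed by -0.41 (exact permutation p = 0.0857, adjusted 0.137), and that of Zyx to Pxn by 0.12 (exact permutation p = 0.714, also after adjustment), both with overlapping groups.

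Ilk and Parva encode members of the complex of ILK, PINCH and parvin, in which the pseudokinase ILK binds integrin tails and α-parvin binds actin. Parva (ENSRNOG00000015713) was at 140.2, 151, 139.8 and 198.2 CPM in S1 to S4 and at 219, 198.4, 191 and 234 CPM in S5 to S8. S4 alone reached the Sirt6-KD range, and the log2 fold change was 0.42 (SE 0.14, 95% CI 0.10 to 0.74, adjusted p = 0.0610), past no threshold. Ilk (ENSRNOG00000018993) was at 126, 158, 133 and 172 CPM in S1 to S4 and at 154, 146, 152 and 177 CPM in S5 to S8. Its groups overlap widely, with a log2 fold change of 0.10 (SE 0.13, 95% CI -0.20 to 0.39, adjusted p = 0.648). The log2 ratio of Parva to Ilk was -0.06 to 0.20 in Sirt6-Ctrl and 0.32 to 0.51 in Sirt6-KD, without overlap (difference 0.33, exact permutation p = 0.0286, adjusted 0.0571).

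**Figure D3:**
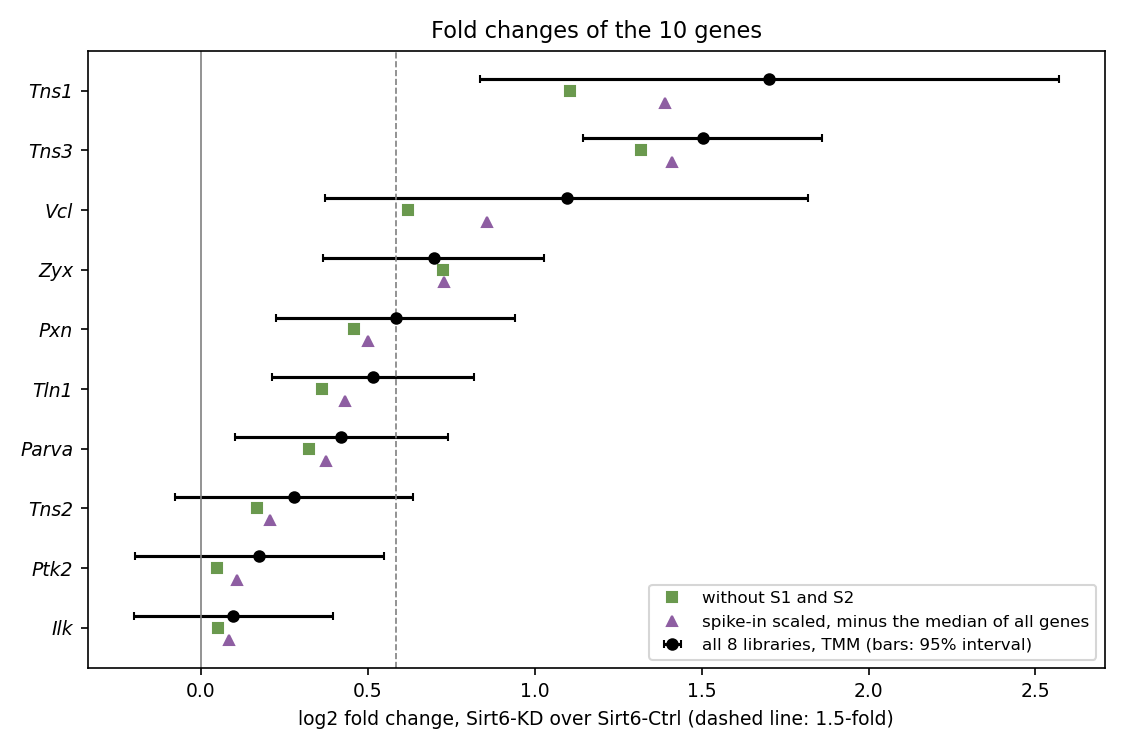
Log2 fold change, Sirt6-KD against Sirt6-Ctrl, of the 10 genes. Circles with bars are edgeR estimates on all 8 libraries with 95% confidence intervals, squares leave out S1 and S2, triangles are spike-in scaled values minus the median of all genes, the grey line is 0 and the dashed line 1.5-fold. All 10 genes lie above 0 under each, from 0.10 for Ilk to 1.70 for Tns1 on all 8 libraries.

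The spread between libraries was wider in Sirt6-Ctrl than in Sirt6-KD. The median SD of log2 CPM over the 10 genes was 0.29 in Sirt6-Ctrl and 0.12 in Sirt6-KD, and over all genes it was 0.46 and 0.21. Tns1 (0.97 against 0.17) and Vcl (0.79 against 0.05) spread most in Sirt6-Ctrl. S1 and S3 lay below every Sirt6-KD library for 10 of the 10 genes, S2 for 9 and S4 for 6, whereas 41.2%, 30.8%, 44.7% and 36.5% of all genes did so in S1, S3, S2 and S4. With libraries scaled by spike-in counts none of the 10 was called (0.166% of all genes were called higher and 0.0302% lower), and 9 had an unadjusted p below 0.05, against 32.3% of all genes. The log2 fold changes were then 1.03 (Ilk) to 2.36 (Tns3), with adjusted p of 0.0577 to 0.163 and a median of 1.41, or 0.47 above the median of all genes under that scaling. Without S1 and S2, 3 were called higher (Tns1, Tns3 and Zyx), against 5.68% of all genes, and none lower, against 5.06%.

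Around the 10 genes, other genes of the adhesion were counted in 5 lists written by function, to be read against the 8.25% of all genes called higher and 9.88% called lower. The number of all genes called higher also moved with the setting. It was 1094 by edgeR on all 8 libraries, 1593 by DESeq2, 1669 by limma-voom and 805 without S1 and S2. On leaving out 1 library it ranged from 466 (without S6) to 1794 (without S3), with 547 without S1. Among 11 integrin-proximal adaptors tested, 7 were called higher by edgeR, DESeq2 and limma-voom and none lower by any of them, with none lower at an unadjusted p below 0.05 (median log2 fold change 0.65). The 4 with the smallest p among those whose groups do not overlap were Parvb, Tgfb1i1, Tln2 and Lims2. Parvb, β-parvin, rose from 44.5 ± 9.78 to 91.0 ± 8.06 CPM (SD, n = 4), a log2 fold change of 1.03 (SE 0.17, adjusted p = 0.00428). Tgfb1i1, which encodes the paxillin relative Hic-5, rose from 81.9 ± 33.3 to 206 ± 33.0 CPM (log2 fold change 1.33, SE 0.25, adjusted p = 0.00768). Tln2, the second talin, was at 47.9, 24.1, 112 and 82.7 CPM in S1 to S4 and at 196, 198, 196 and 200.3 CPM in S5 to S8 (log2 fold change 1.57, SE 0.37, adjusted p = 0.0166), and lost its call without S1 (adjusted p = 0.0531). Lims2, a PINCH protein, was at a log2 fold change of 0.65 (adjusted p = 0.0282) and lost its call in 6 of the 8 fits that leave out 1 library (adjusted p up to 0.0931). The list held 5 called genes without S1 and S2, and 2 without S1, 5 without S2 or S4, 7 without S3 and 3 without each of the Sirt6-KD libraries.

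Of 27 LIM, Ena/VASP and actin-linking genes tested, edgeR called 12 higher, as did DESeq2, and limma-voom 13. None was called lower by edgeR or limma-voom, while DESeq2 called 1 lower and 4 were lower at an unadjusted p below 0.05 (median 0.73). Lpp, a zyxin relative, rose from 6.67 ± 4.99 to 34.5 ± 5.03 CPM (log2 fold change 2.37, SE 0.46, adjusted p = 0.00768). Vasp, which promotes actin filament growth and binds zyxin, rose from 99.3 ± 20.2 to 167 ± 15.4 CPM (0.75, SE 0.16, adjusted p = 0.0107). Flna, the actin crosslinker filamin A, rose from 1424 ± 512 to 2845 ± 392 CPM (0.999, adjusted p = 0.0175). Fhl2, a LIM protein that moves between adhesions and nucleus, was at a log2 fold change of 0.86 (adjusted p = 0.00904). Vasp lost its call without S1 and S2, when 6 genes of the list were called higher. Leaving out 1 library gave 5 (without S6) to 13 (without S4), with 7 without S1, 6 without S5 or S8, and 8 or more without the others.

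Of 25 partners of FAK and Src tested, edgeR called 6 higher and DESeq2 and limma-voom 8 each, against 8.25% of all genes by edgeR. None was called lower by any of these, with 1 lower at an unadjusted p below 0.05 (median 0.52). Bcar1, the substrate p130Cas, rose from 141 ± 20.7 to 246 ± 19.7 CPM (log2 fold change 0.80, SE 0.13, adjusted p = 0.00473). Bcar3, which binds p130Cas, was at 9.37, 9.53, 9.58 and 9.15 CPM in S1 to S4 and 26.6, 25.4, 21.5 and 27.9 CPM in S5 to S8 (1.43, SE 0.18, adjusted p = 0.00189). Its Sirt6-Ctrl libraries lay within 1.05 times of each other, S1 and S2 included. Arhgef6, an exchange factor for Rac and Cdc42, was at 1.22 (adjusted p = 0.0118), and Ptpn12, the phosphatase PTP-PEST, at 0.998 (adjusted p = 0.0121). The list held 5 called genes without S1 and S2, and 4 without S1, S5, S6 or S7 and up to 9 without S3 or S4.

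Of 11 adhesion turnover genes tested, edgeR and DESeq2 called 2 higher and limma-voom 3, against 8.25% of all genes by edgeR. None was called lower by any of these, with none lower at an unadjusted p below 0.05 (median 0.37). The 2 called by edgeR were Ppfibp1 (liprin-β1), at 0.85 (adjusted p = 0.00753), and the kinase Map4k4, at 0.72 (adjusted p = 0.0187). Map4k4 lost its call without S1 and S2, which left 1. Without S1, S5, S6 or S7, 1 gene of this list was called.

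Of 16 integrin subunits tested, 4 were called higher and 1 lower, against 8.25% and 9.88% of all genes (median 0.78). The ones called, named after their values were seen, were Itga1, Itga2, Itga3 and Itgav on the higher side and Itgb5 on the lower. Itga2 was at 5, 8, 218 and 67 counts in S1 to S4 and at 586, 475, 1175 and 547 in S5 to S8. Itgb1, the β subunit with which Itga1, Itga2 and Itga3 pair, was not called, at 40594 to 82685 counts in Sirt6-Ctrl and 58316 to 76097 in Sirt6-KD. Without S1 and S2 the integrin counts were 3 higher and 2 lower. The count called higher was 1 without S1, S6, S7 or S8, 2 without S5, 3 without S2 or S4 and 5 without S3.

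**Figure D4:**
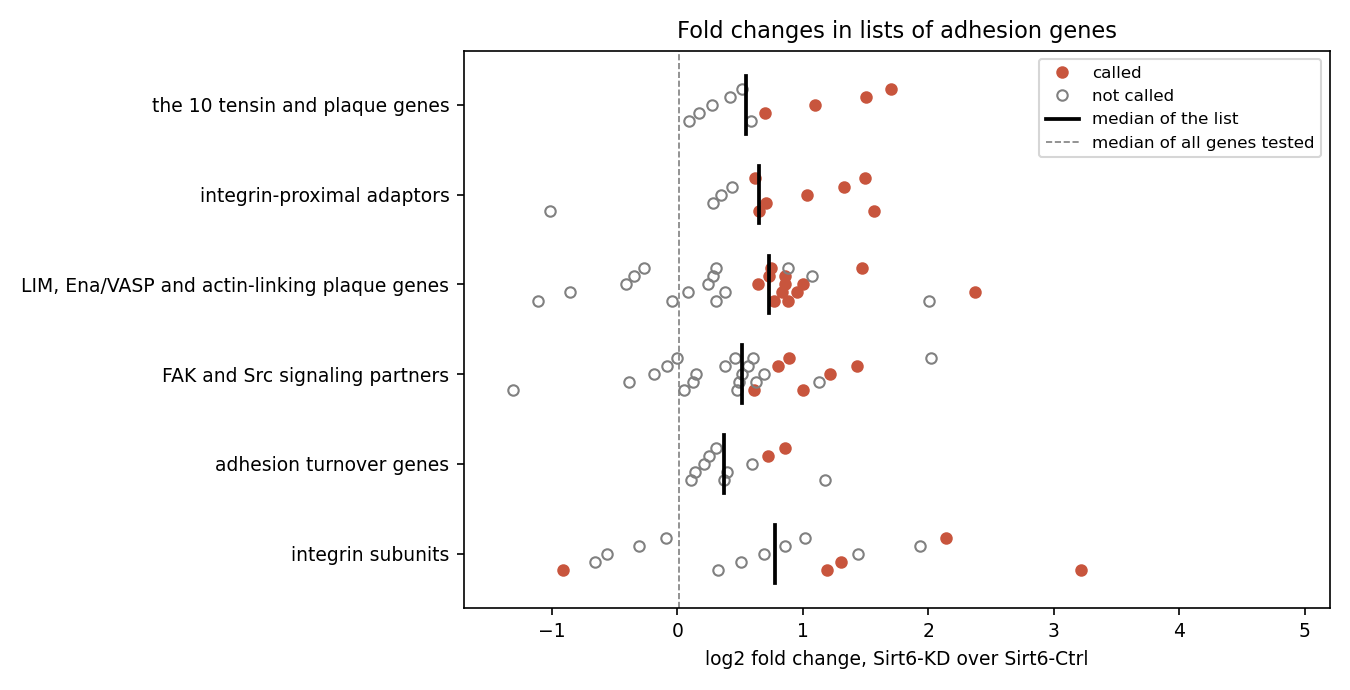
Log2 fold change (Sirt6-KD over Sirt6-Ctrl) of every gene tested in the 10 tensin and plaque genes and in the 5 lists around them. Filled points were called, open points were not, thick bars are the medians of the lists and the dashed line is the median of all genes tested, 0.01. Every list median lies to the right of that line, from 0.37 for the adhesion turnover genes to 0.78 for the integrin subunits.

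With libraries scaled by spike-in counts, 1 integrin subunit was called higher and no gene of the other 4 lists. The medians of the 5 lists then lay 0.29 (turnover genes) to 0.57 (LIM genes) above the median of all genes. Every list held genes at an unadjusted p below 0.05 under that scaling, from 8 of the integrin subunits to 20 of the LIM genes, where 32.3% of all genes had one.

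Some of the 10 genes share their locus with others in RefSeq, and whether counting used the strand was not given in the sources used here. Zyx overlaps Epha1, Ilk overlaps Taf10, and Tln1 overlaps Creb3 and a lncRNA. Tns3 overlaps a protein-coding entry without a gene name and a lncRNA, and Tns1, Tns2 and Ptk2 overlap noncoding or pseudogene entries. Reads from the shared stretches may not be told apart, and Vcl, Pxn and Parva overlap no other gene of that annotation.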

How the data were processed

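RNA-seq libraries of Sirt6-Ctrl (n = 4) and Sirt6-KD (n = 4) NP cells were analysed. The authors deposited raw counts in 32975 rows, 92 of them ERCC spike-ins and the rest Ensembl genes, without normalization. Per the submitters' processing notes, Trimmomatic 0.36, STAR 2.5.2b, featureCounts of Subread 1.5.2, DESeq2 and the build Rnor_6.0 were used. The authors also deposited a table of 13612 rows with their log2 fold changes and p-values, which were not used, gene names, which were, and a normalized signal of each library, which is the count divided by 1 size factor per library and was used only in checking the table.

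Spike-in rows were left out of library sizes and tests. Rows with low counts were removed with filterByExpr, libraries were scaled by TMM, and 13253 genes were tested with edgeR 4.0.16 (glmQLFit and glmQLFTest) in R 4.3.3. Of these, 73 had no gene name. The SE is the size of the log2 fold change over the square root of F. Ratios within a library were taken on raw counts with 2 added to each, on a log2 scale, and compared by exact two-sided permutation tests. Log2 CPM elsewhere was taken with a prior count of 2. In each library 3 counts are 0.0761 to 0.0948 CPM, and this covers counting error only. The alternatives were other scalings and filters, DESeq2 1.42.0, limma-voom (limma 3.58.1), glmTreat, other thresholds and leaving out libraries. On counts simulated for this comparison (13253 genes), 35 of 97 genes changed by 1 (log2) and 76 of 99 changed by 2 were called, with 5 false calls. The simulation gave both groups the same spread for each gene. In the data the median SD of log2 CPM was 0.46 in Sirt6-Ctrl and 0.21 in Sirt6-KD, so these figures need not hold for them. No pair of libraries within a group agreed within counting noise.

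The 10 genes and the lists were chosen with earlier results of these data known. Genes of the lists are named by a rule: up to 4 called genes in each direction with the smallest p among those whose groups do not overlap. Listed genes with no row by that name in the authors' table, Tns4, Kank4, Palld, Cttn, Itga9, Krt19, Col2a1 and Tbxt among them, were not analysed here. A further list of genes is not reported here. Not analysed here either were the ATAC-seq data and the mouse tissue arrays.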

Additional observations from a re-analysis of the deposited data

Results flagged for a closer look

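In 1 of 66 groups of 4 libraries examined, over the 10 genes, Sirt6, the 14 named genes of the lists and the 8 ratios, 1 library lay far from the other 3, where chance at 1 in 20 gives 3.3. Parvb was at 103 CPM in S5 and at 85.5 to 88.0 CPM in the other Sirt6-KD libraries, a gap of 0.857 of the range of the group. Every Sirt6-KD library still lay above every Sirt6-Ctrl library. None of the 10 tensin and plaque genes had such a library in either group.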

How the results depend on the processing

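Of the 10 genes, 4 were called, while 0 were called with libraries scaled by spike-in counts, 1 by glmTreat against 1.5-fold, 1 at an adjusted p below 0.01 (Tns3 in both) and 3 to 5 on leaving out 1 library (5 without S3, with Pxn). Over 200 values of the 10 genes under alternatives, none changed sign, 177 stayed on the same side of the thresholds, 18 lost a call and 5 gained one. Of the 18, 11 were Vcl. Of 280 values of the named genes of the lists, 234 kept their call and 46 lost it. Sirt6 fell by 0.36 (adjusted p = 0.568) under spike-in scaling, where the median of all genes was 0.94, and by 1.31 to 1.39 on leaving out 1 library. Over all genes, 22 were called higher and 4 lower with spike-in scaling, 91 and 182 by glmTreat, 260 and 491 at an adjusted p below 0.01, 805 and 717 without S1 and S2, and 1669 higher by limma-voom. On leaving out 1 library, 466 to 1794 were called higher and 687 to 1746 lower. The ratio of Zyx to Pxn turned to -0.0073 without S1 (range -0.0073 to 0.35), and the difference in spike-in share was -4.09 to -1.82 percentage points (exact permutation p = 0.0571 each, the smallest 3 against 4 allows). The cause of these changes was not tested. No paired analysis was possible because no label ties a library to a rat.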

Other observations

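Among the tested genes outside the 10, those whose centred log2 CPM over the 8 libraries lay nearest to each tensin by Euclidean distance were the following, as a description over libraries that share their depth and group. Nearest to Tns1 were Svep1, a large matrix protein that binds integrins (distance 0.42), Antxr2, a receptor for collagen VI (0.57), and AABR07032338.1 (0.57), against a median distance of 3.41 over all genes. Nearest to Tns3 were Myof, the membrane repair protein myoferlin (0.41), Tnfaip3, the NF-κB inhibitor A20 (0.42), and Pik3r1, a regulatory subunit of PI3-kinase (0.45), against a median of 2.67. Nearest to Tns2 were the lysosomal sulfatase Arsb (0.24), Tmem63b (0.26) and Tsta3 (0.27), against a median of 1.55. The genes nearest to Tns1 and Tns3 had log2 fold changes of 1.34 to 1.74, and those nearest to Tns2 of 0.25 to 0.28. The distance takes in the difference between the groups, so fold changes close to those of the tensin follow from the way these genes were picked.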
